A study of Mus musculus with 6 samples.

Results

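The miR-23, miR-27 and miR-24 miRNAs were followed here in extracellular vesicles (EVs) collected from cultures of mouse primary oligodendrocytes, and in the cultured cells. The members were the 9 mature strands of these families named miR-23a, miR-23b, miR-27a, miR-27b and miR-24-3p, taken by name from the 1906 mature miRNAs counted in each library. Of the 9 members, 8 had at least 1 read in some library, and 5 passed the filter on low counts and were tested, all of them 3p strands. There were 3 EV libraries and 3 cell libraries. Every library came from oligodendrocytes of C57BL/6N mice at embryonic day 14, cultured with 1% horse serum, washed, and kept in serum-free Sato medium with B27 for 24 h of vesicle collection. EVs were the pellet of a final spin at 100000 g, collected from cultures 5 to 6 days in vitro, while whole cells were sampled on day 6. A pellet of this kind can hold particles other than vesicles, and no library of medium alone was analysed here. Whether replicates came from separate cultures is not in the labels. The p-values then measure only how far these libraries spread, and that spread may be technical.

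A miRNA hairpin is cut out of a longer primary transcript and then diced to a duplex of a 5p and a 3p strand, one of which is usually kept in Argonaute as the guide that represses target mRNAs. The miR-23, miR-27 and miR-24 hairpins lie next to each other in 2 paralogous clusters, each thought to be made as 1 primary transcript, so that members of a cluster start from equal numbers of hairpins. miR-23 is known to promote oligodendrocyte differentiation and to repress lamin B1, a nuclear envelope protein whose excess disturbs myelin. miR-27 is known as a regulator of adipogenesis and of oligodendrocyte development, and miR-24 as a repressor of cell cycle genes. The families are also known from endothelial cells and astrocytes.

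In the RefSeq and GENCODE M21 annotations of GRCm38, a later build than the one used for the counts, the Mir23a cluster (Mir23a, Mir27a and Mir24-2) lies on chromosome 8 outside protein-coding genes. Mir24-2 overlaps an exon of the long noncoding RNA gene Gm26532. The Mir23b cluster (Mir23b, Mir27b and Mir24-1) lies on chromosome 13 within introns of 2010111I01Rik, on the same strand, and of Fancc, on the opposite strand. The counts carry no coordinates, and none are given.

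The mature strands are shown because their likeness decides which reads can be assigned to 1 gene. Capitals mark the seed, bases 2 to 8 from the 5′ end, which pairs with targets. Sequences are from RefSeq (GRCm38.p6), which held 8 of the 9 members, miR-23b-3p being the other.
miR-23a-3p: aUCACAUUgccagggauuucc
miR-27a-3p: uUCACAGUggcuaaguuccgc
miR-27b-3p: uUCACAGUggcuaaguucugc
miR-24-3p: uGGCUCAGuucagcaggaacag
miR-27b-5p: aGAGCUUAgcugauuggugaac
miR-24-1-5p: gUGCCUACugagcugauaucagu
miR-24-2-5p: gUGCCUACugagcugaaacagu
miR-27a-3p and miR-27b-3p share their seed and differ by C19U, counted from the 5′ end of miR-27a-3p, so 20 of 21 bases are the same. miR-24-3p is the same molecule from both clusters, and its reads cannot be divided between them. The 5p strands of miR-24 are the same over their first 16 bases and differ after that, which gives each gene a strand of its own. Of the other miRNAs in the files, miR-6413, miR-6410, miR-6369 and miR-5124b share the miR-24-3p seed. All 4 had 0 reads in the 6 libraries.

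Total counts were 431004, 313766 and 689475 in EVs replicates 1 to 3 and 156189, 126910 and 202358 in Cells replicates 1 to 3. Levels are given as CPM, reads scaled to a fixed library total. Where a library had 0 reads, the limit taken was 3 reads, equal to 4.35 to 9.56 CPM for EVs and 14.8 to 23.6 CPM for cells. Exact binomial intervals and floors cover counting error only, while the intervals from edgeR and limma also take in the spread between libraries. All 5 markers of the oligodendrocyte lineage had reads in every library, summing to 33557 to 36111 CPM per EV library and 33961 to 43435 CPM per cell library. These sums cover opposite directions, 2 of the 5 being called higher and 3 lower in EVs by edgeR. Of all 336 tested miRNAs 28.6% were called higher and 28.9% lower. Lists of markers of other cells also had reads. Their summed levels in EVs and cells ran over 27535 to 35037 and 10052 to 17052 CPM for 5 neuronal miRNAs. For 6 mural and mesenchymal miRNAs they were 2524 to 4915 and 362 to 1044 CPM, and for 2 endothelial miRNAs 182 to 303 and 63.0 to 93.9 CPM. They were 612 to 1936 and 1592 to 4566 CPM for 5 myeloid miRNAs, 3944 to 7835 and 212 to 256 CPM for 3 erythroid miRNAs, and 4197 to 8321 and 29.7 to 47.3 CPM for 2 liver miRNAs. The list of 2 astrocyte miRNAs, at 2021 to 4145 CPM per EV library and 400.3 to 1236 CPM per cell library, was nearly all miR-143-3p, which the mural list also holds. miR-143-3p was higher in EVs (means 2785 and 569 CPM, log2 fold change 1.76, edgeR adjusted p = 0.00892). The other astrocyte miRNA, miR-449a-5p, had means of 78.5 CPM in EVs and 113 CPM in cells (log2 fold change -1.05, edgeR adjusted p = 0.488, not called). No list had a member at 0 over a whole group. The 3 cell libraries together held only 1 read each of miR-145a-3p, miR-199a-5p, miR-214-3p, miR-144-3p and miR-122-3p. In EVs the largest part of the neuronal, erythroid and liver sums was miR-124-3p, miR-451a and miR-122-5p (means 24954, 4368 and 6074 CPM). The part of these other cells in the results on the members was not tested, and in such bulk libraries fewer cells of a type and less RNA per cell cannot be told apart. The erythroid and liver lists were much higher in EVs than in cells, and the source of those reads was not tested.

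The 9 members together held 0.890%, 0.608% and 0.905% of counts in EVs replicates 1 to 3 and 1.01%, 1.01% and 1.35% in Cells replicates 1 to 3. Every EV library thus lay below every cell library, a description with no test. This separation rested on miR-23b-3p, since each of the other tested strands was higher in EVs replicate 3 than in Cells replicate 2. miR-27b-3p supplied most of these reads, 57.8% to 64.8% of the members' reads in EVs and 50.7% to 60.0% in cells. miR-23b-3p supplied 5.30% to 8.60% in EVs and 19.8% to 25.3% in cells, while miR-24-3p supplied 24.0% to 26.5% and 11.8% to 16.9%. For these last strands the ranges of the groups did not overlap.

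**Figure D1:**
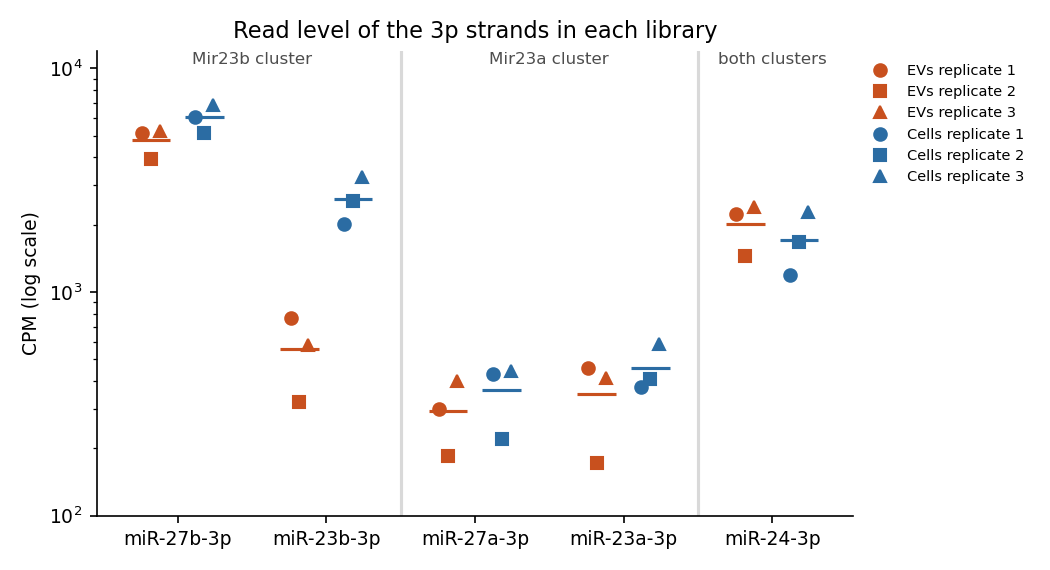
Level of each 3p strand in CPM on a log axis, grouped by cluster, with 1 symbol per library (EVs orange, cells blue) and a line at the mean of the 3 libraries of a group. miR-23b-3p is separated, the EV libraries lying at 322 to 766 CPM and the cell libraries at 2010 to 3271, and the other 4 strands overlap between groups.

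The question for each member was whether its level differed between EVs and cells. Of the 5 tested members, 3 were lower in EVs (miR-23b-3p, miR-27b-3p and miR-23a-3p) and 0 were higher, by edgeR's quasi-likelihood test with Benjamini-Hochberg adjustment over all 336 miRNAs tested. miR-27a-3p had an unadjusted edgeR p of 0.0371, and its adjusted p of 0.0613 was not below 0.05. With DESeq2 the member numbers were 4 lower and 0 higher, beside 99 lower and 89 higher among all tested miRNAs. In the edgeR fit 57.4% of all tested miRNAs were called in either direction, 28.9% lower and 28.6% higher in EVs. The median log2 fold change was -0.82 over the 5 tested members and 0.06 over all 336. These directions are relative to the TMM scaling (trimmed mean of M-values, which assumes that most miRNAs do not change). With library size only, the median of all miRNAs moved to 0.54 and that of the 5 members to -0.34, and of the members only miR-23b-3p was called (17.9% of all tested miRNAs were lower in EVs in that fit). In CPM 1 of the 5 tested members did not overlap between groups, against 67.6% of all tested miRNAs.

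miR-23b-3p, from the first hairpin of its cluster, had the largest difference of the tested members. It stood at 766, 322 and 582 CPM in EVs replicates 1 to 3 and at 2010, 2553 and 3271 CPM in Cells replicates 1 to 3. The highest EV library was below the lowest cell library, which held for 20.2% of all tested miRNAs. Means were 556 CPM in EVs and 2612 CPM in cells, and the log2 fold change was -2.70 (SE 0.30, edgeR adjusted p = 0.000103). It was called under every alternative run, at -2.22 (adjusted p = 0.000298) with library size only. By rank among all miRNAs of a library, it was 121st, 176th and 138th in the EV libraries and 66th, 52nd and 47th in the cell libraries.

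miR-23a-3p, its paralog, differed less. It stood at 459, 172 and 415 CPM in EVs and at 378, 410 and 588 CPM in cells, so the groups overlapped, with EVs replicate 2 the lowest. Its log2 fold change was -0.87 (SE 0.32, edgeR adjusted p = 0.0386). The call ended with library size only (-0.39, adjusted p = 0.343) and with a filter at a mean of 10 CPM (-0.83, adjusted p = 0.0502). Leaving out EVs replicate 2 also ended it (-0.68, adjusted p = 0.0512), as did leaving out Cells replicate 1 (-0.94, 0.0504) or Cells replicate 3 (-0.70, 0.166).

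miR-27b-3p was the most abundant member in all 6 libraries. Its level was 5144, 3936 and 5245 CPM in EVs and 6089, 5161 and 6859 CPM in cells. The groups overlapped by 1 library each, EVs replicate 3 being above Cells replicate 2. The log2 fold change was -0.82 (SE 0.19, edgeR adjusted p = 0.00584), and the call ended with library size only (-0.34, adjusted p = 0.158).

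miR-27a-3p was the least abundant of the 5 by group mean, at 299, 185 and 402 CPM in EVs and 429, 221 and 445 CPM in cells. The groups overlapped, and replicate 2 was the lowest library in both. Its log2 fold change was -0.80 (SE 0.33, edgeR adjusted p = 0.0613), not called. Deviations correlated only weakly between libraries with the same number, and the labels do not say whether the numbers pair the samples. In a fit blocked on the replicate number miR-27a-3p was called lower (-0.79, SE 0.22, edgeR adjusted p = 0.0206). It was also called with DESeq2 (-0.86, adjusted p = 0.0322) and without EVs replicate 3 (-1.07, 0.0329) or Cells replicate 2 (-1.07, 0.0166).

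miR-24-3p, the strand that both clusters make, stood at 2223, 1456 and 2396 CPM in EVs and at 1197, 1670 and 2283 CPM in cells. The groups overlapped almost wholly. The log2 fold change was -0.22 (SE 0.25, edgeR adjusted p = 0.474), with a 95% interval of -0.77 to 0.33. With library size only it was 0.24 (adjusted p = 0.472), so its direction depended on the scaling.

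**Figure D2:**
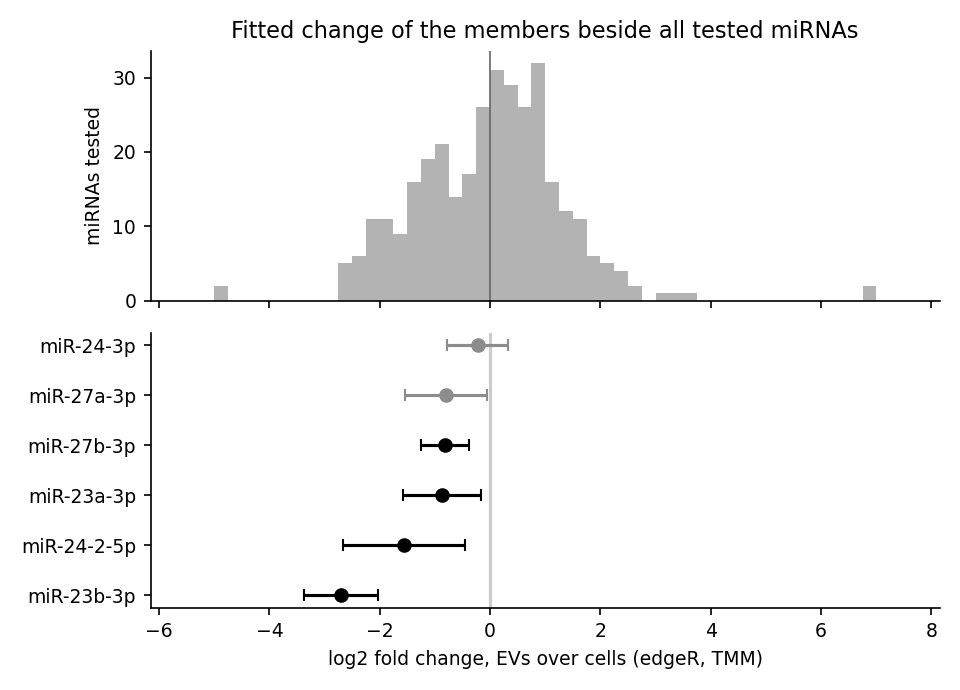
Upper panel: number of tested miRNAs by log2 fold change of EVs over cells, for all 336. Lower panel: the 5 tested members and miR-24-2-5p with 95% intervals, black where called and grey where not, on the same axis. miR-23b-3p at -2.70 lies far to the left of miR-24-3p at -0.22.

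The order of the levels differed between the groups at 1 place. miR-27b-3p was the highest in each library. In all 3 EV libraries miR-24-3p was above miR-23b-3p, and in all 3 cell libraries miR-23b-3p was above miR-24-3p. miR-23a-3p and miR-27a-3p were the lowest and were not separated from each other, miR-23a-3p being above in 2 of 3 libraries of each group. These orders compare read shares of strands of 21 or 22 bases, not numbers of molecules.

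Ratios between members of 1 library need no scaling between libraries, and the first ones asked were those of the paralogs. The reads of miR-23b-3p were 1.67, 1.87 and 1.402 times those of miR-23a-3p in EVs replicates 1 to 3, and 5.32, 6.23 and 5.56 times in Cells replicates 1 to 3. The groups were far apart. Put as a share, miR-23a-3p held 38.0% ± 3.42 of miR-23-3p reads in the EV libraries against 15.0% ± 1.02 in the cell libraries (SD, n = 3 in each group). The log2 ratio of miR-23a-3p to miR-23b-3p was higher in EVs by 1.79 (SE 0.16, 95% interval 1.39 to 2.20), which is 3.47-fold, with a limma adjusted p of 0.00119 over 118 pairs of lettered paralogs. Of these pairs 44.1% were called and 53.4% did not overlap between groups, and this pair was 16th by size of the change. The median size over all pairs was 0.92. How reads that fit both miR-23 paralogs were assigned is not given in the sources used here. Their likeness was not compared, since RefSeq held no sequence of miR-23b-3p. The ratios of miR-23b-3p to other strands below carry the same limit.

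For the miR-27 paralogs no difference in proportion was detected. miR-27b-3p had 17.2, 21.3 and 13.1 times the reads of miR-27a-3p in EVs and 14.2, 23.4 and 15.4 times in cells. The ranges lay on top of each other, and miR-27a-3p held 5.70% ± 1.33 of miR-27-3p reads in the EV libraries and 5.59% ± 1.31 in the cell libraries (SD, n = 3 in each group). The difference in log2 ratio was 0.026 (SE 0.28, limma adjusted p = 0.947), and its 95% interval of -0.67 to 0.72 does not reach the 1.79 of the miR-23 pair. How reads that fit both paralogs were assigned is not given in the sources used here. With the reads of both paralogs summed before the fit, miR-23-3p was lower in EVs by a log2 fold change of -2.25 (SE 0.30, edgeR adjusted p = 0.000261) and miR-27-3p by -0.84 (SE 0.21, adjusted p = 0.00634).

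**Figure D3:**
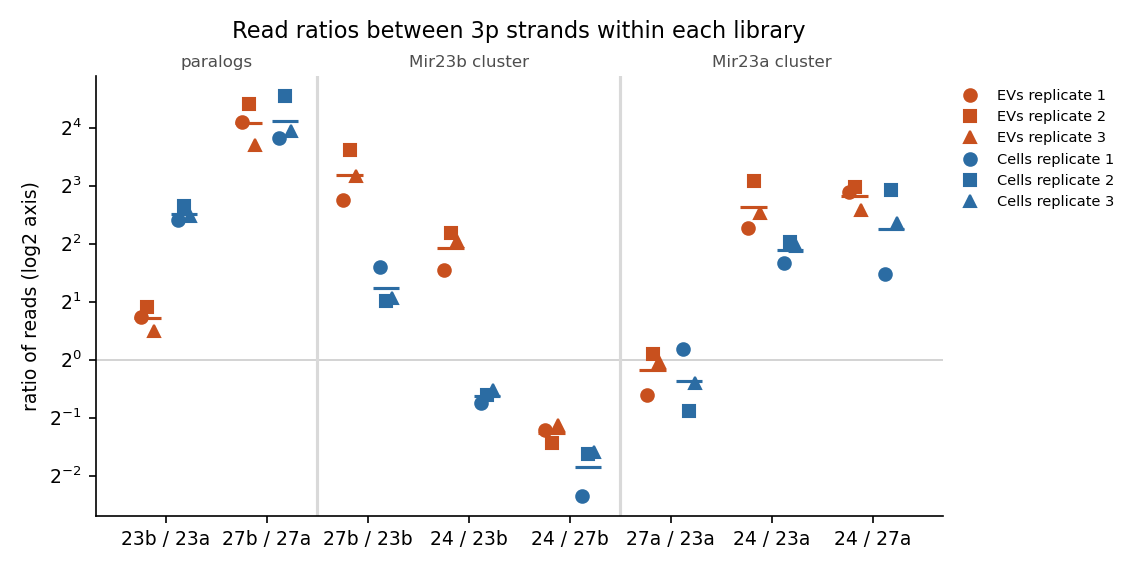
Ratio of reads between the 3p strands named on the x axis (b over a for the paralogs, then pairs within each cluster), on a log2 axis with 1 symbol per library and a line at the geometric mean. EVs (orange) and cells (blue) are far apart wherever miR-23b-3p is one of the strands, and lie together for 27b / 27a and 27a / 23a.

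Within the Mir23b cluster the strands did not keep their proportions. The reads of miR-27b-3p were 6.72, 12.2 and 9.02 times those of miR-23b-3p in EVs and 3.03, 2.02 and 2.10 times in cells. The log2 ratio was higher in EVs by 1.95 (SE 0.31, limma adjusted p = 0.00426), or 3.86-fold. miR-24-3p had 2.90, 4.52 and 4.12 times the reads of miR-23b-3p in EVs and 0.596, 0.654 and 0.698 times in cells, a change from more to fewer reads than its neighbour. This log2 ratio was higher in EVs by 2.54 (SE 0.26, limma adjusted p = 0.00102), or 5.82-fold. Both calls held under every alternative run. The test covered 294 pairs of miRNAs whose genes lie within 10 kb on 1 strand, of which 32% were called and 54.4% did not overlap. Many of those pairs share a miRNA.

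The third pair of this cluster, miR-24-3p to miR-27b-3p, changed less. The ratio was 0.432, 0.370 and 0.457 in EVs and 0.197, 0.324 and 0.333 in cells, without overlap. The difference of 0.59 on the log2 scale did not pass the test (SE 0.29, 95% interval -0.09 to 1.28, limma adjusted p = 0.144). Since miR-24-3p also comes from the Mir23a cluster, its ratios are to the sum of both loci.

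Within the Mir23a cluster no ratio was called. miR-27a-3p had 0.652, 1.07 and 0.969 times the reads of miR-23a-3p in EVs and 1.14, 0.538 and 0.756 times in cells, with full overlap. The log2 difference was 0.18 (SE 0.36, 95% interval -0.68 to 1.04, limma adjusted p = 0.705). The ratio of miR-24-3p to miR-23a-3p was 4.84, 8.46 and 5.78 in EVs and 3.17, 4.08 and 3.88 in cells, without overlap, a log2 difference of 0.75 (SE 0.28, limma adjusted p = 0.083). For miR-24-3p to miR-27a-3p the log2 difference was 0.57 (SE 0.39, limma adjusted p = 0.276), and the groups overlapped.

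The difference between the clusters was itself compared, a measure chosen after its parts were seen. The log2 ratio of miR-27 to miR-23 in the Mir23b cluster minus that in the Mir23a cluster was 3.36 ± 0.14 over the EV libraries and 1.59 ± 0.26 over the cell libraries (SD, n = 3 in each group). All EV libraries (3.22 to 3.50) lay above all cell libraries (1.42 to 1.90). The difference was 1.77, or 3.41-fold. A two-sided exact permutation test gave p = 0.1, and 3 libraries against 3 can give none lower. That test exchanged libraries freely and ignored a possible pairing by replicate number. Exchange within the replicate numbers, added after seeing the data, gave an exact permutation p of 0.25, the smallest that 3 pairs allow.

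The 5p strands of the miR-23 and miR-27 hairpins, the passengers, were rare in both groups. miR-23a-5p had 0 reads in all 6 libraries. With reads pooled over a group, this is 0 of 538 reads of both arms in EVs, which allows a share of up to 0.558%, and 0 of 230 in cells, which allows up to 1.30%. miR-23b-5p had 1 read, in Cells replicate 1. miR-27a-5p had 1 read in EVs, in replicate 1, and 5 in cells, 1 in replicate 2 and 4 in replicate 3, too few and too unevenly spread for a ratio.

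miR-27b-5p was the 5p member with reads in every library. It had 4, 2 and 8 reads in EVs (9.28, 6.37 and 11.6 CPM) and 6, 7 and 10 reads in cells (38.4, 55.2 and 49.4 CPM), below the filter of the main test. All EV values were below all cell values, and the EV count in replicate 2 was under the limit of 3 reads. Without a filter its log2 fold change was -2.59 (SE 0.59, edgeR adjusted p = 0.000116). As a share of both arms of its hairpin it was 0.180%, 0.162% and 0.221% in EVs and 0.627%, 1.06% and 0.715% in cells. The log2 ratio of 5p to 3p was lower in EVs by -1.98 (SE 0.41, limma adjusted p = 0.00805 over 187 hairpins, of which 35.8% were called and 46% did not overlap). The passenger strand of miR-27b thus made up a smaller share of its hairpin's reads in EVs. This was the commoner direction, since 43 of the 187 hairpins were called lower and 24 higher, with a median change of -0.46.

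The 5p strands of miR-24 showed a like pattern. Summed over both genes, they made up 2.15%, 0.868% and 2.19% of miR-24 reads in EVs and 5.08%, 4.93% and 4.55% in cells. EVs replicate 2 was the lowest, with 4 reads of these strands. The log2 ratio of 5p to 3p was lower in EVs by -1.63 (SE 0.47, limma adjusted p = 0.0266). Leaving out any library other than EVs replicate 3 ended the call. The limma adjusted p was 0.0508 without EVs replicate 1 (log2 difference -1.82) and 0.0702 without EVs replicate 2 (-1.23). Without Cells replicate 1, Cells replicate 2 or Cells replicate 3 it was 0.0534, 0.0546 or 0.0521. For miR-27a, miR-23a and miR-23b the arm ratio rested on 0 reads of the 5p strand in some libraries and is not given.

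**Figure D4:**
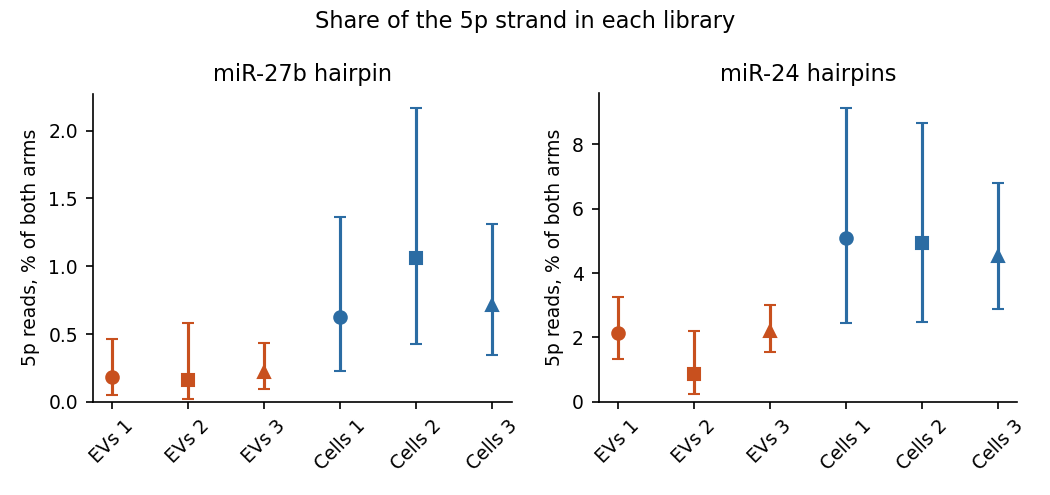
Share of 5p reads among the reads of both arms, in percent, for the miR-27b hairpin (left) and the miR-24 hairpins (right), by library, with 95% exact binomial intervals of counting error. The 3 EV libraries (orange) lie below the 3 cell libraries (blue) in both panels.

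The 5p strands also show which miR-24 gene the reads came from. Of these reads, miR-24-2-5p, from the Mir23a cluster, made up 55 of 62 in EVs (88.7%, 95% exact binomial interval 78.1 to 95.3) and 38 of 43 in cells (88.4%, 74.9 to 96.1). miR-24-1-5p, from the Mir23b cluster, had 7 reads in EVs and 5 in cells. A difference in the share of the 2 genes was not detectable at this depth. These shares are of passenger reads, and say nothing of how the guide divides between the genes. miR-24-2-5p stood at 44.1, 9.56 and 47.9 CPM in EVs and 51.2, 70.9 and 104 CPM in cells, without overlap. Its log2 fold change was -1.56 (SE 0.49, edgeR adjusted p = 0.0219), and the call ended with library size only (-1.09, adjusted p = 0.0912) and without Cells replicate 3 (-1.28, 0.11).

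Mir3074-1 and Mir3074-2 are annotated on the opposite strand of the miR-24 genes, and their miR-3074-5p pairs with miR-24-3p over 20 bases. miR-3074-5p had 10, 5 and 17 reads in EVs and 0, 1 and 2 in cells. Its pooled share of reads in EVs was 3.61 times that in cells (95% exact binomial interval 1.13 to 18.4). With libraries left out, a choice made after seeing the data, this ratio was 6.32 (1.06 to 257) without Cells replicate 3. The interval held 1 without Cells replicate 1 (0.766 to 12.5) or EVs replicate 3 (0.922 to 17.6). miR-3074-1-3p had 9, 3 and 9 reads in EVs and 0, 0 and 2 in cells, so that all its cell reads were in Cells replicate 3. miR-3074-2-3p had 0 reads in all 6 libraries. Whether the counting used strand is not given in the sources used here, so reads of these strands and of miR-24 cannot be told apart with certainty.

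The miRNAs with the pattern closest to each 3p member were found by the distance of TMM log2 CPM profiles over the 6 libraries, after subtracting each profile's mean. The 2 closest to miR-23b-3p were let-7e-5p (distance 0.77) and let-7d-5p (1.05), whose log2 fold changes were -2.71 and -2.16. Its cluster neighbour miR-27b-3p was farther away (2.49), as were its paralog miR-23a-3p (2.23) and miR-24-3p (3.14). The closest were picked as the smallest distances over all tested non-members, so most miRNAs are farther away, and the members were not ranked among them. Closest to miR-27b-3p were miR-106b-3p (0.33) and miR-744-5p (0.37), and closest to miR-27a-3p were miR-181b-1-3p (0.64) and miR-142a-5p (0.66). For miR-23a-3p they were miR-652-3p (0.51) and miR-421-3p (0.53), and for miR-24-3p miR-183-5p (0.34) and miR-384-5p (0.44). The distance of miR-27a-3p to miR-27b-3p was 0.72. These distances describe 6 libraries of 2 groups and carry no test.

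Among all pairs tested, larger changes were seen elsewhere. The largest paralog change was that of miR-148a-3p to miR-148b-3p (2.78 on the log2 scale), followed by let-7e-5p to let-7g-5p (-2.67) and miR-669a-5p to miR-669d-5p (-2.36). The last was not called (limma adjusted p = 0.0522), and it had 0 reads of miR-669d-5p in some library, so that its size depends on the pseudocount. Among neighbours they were those of miR-376a-3p to miR-654-5p (4.53), miR-136-3p to miR-432 (4.36) and miR-376a-3p to miR-679-5p (4.00), each with some library at 0 reads of the second strand. Among arms they were miR-32 (3.88), miR-381 (-3.63, with some library at 0 reads of the 5p strand) and miR-486a (3.53). The lowest counts in a library were 1 read of the 5p and 5 of the 3p strand for miR-32. For miR-486a the lowest was 2 reads of the 3p strand, so these sizes too rest on few reads.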

How the data were processed

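Small RNA of 15 to 200 nt was sequenced from 3 EV and 3 cell samples. The authors deposited raw counts of reads per mature miRNA, 1 table per sample. The tools named in the submitters' processing notes are featureCounts 1.4.6-p4, Bowtie 0.12.8, cutadapt 1.7.1 and bcl2fastq 1.8.4, and the build is NCBIM37 (mm9). How they were set, how strand and multi-mapping reads were handled and whether random adapter bases served to remove duplicates is not given in the sources used here.

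EVs were compared with cells with edgeR 4.0.16 (glmQLFit, glmQLFTest, two-sided; R 4.3.3) after filterByExpr (minimum count 10) and TMM, with group as the only term. A miRNA was called at a Benjamini-Hochberg adjusted p below 0.05. CPM used total counts, without the TMM factor. Ratios between 2 strands were log2 ratios with a pseudocount of 0.5, for pairs with at least 10 reads together in every library. They were tested with limma 3.58.1 over all lettered paralogs, all neighbouring genes (the more abundant arm of each hairpin) or all hairpins (genomic copies summed per arm). Of 1005 RefSeq hairpins, 938 matched a name in the counts, and 1622 of the 1906 miRNAs had a RefSeq sequence. The tests were tried on simulated data.

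Deviations from the group means correlated weakly between libraries with the same number in both groups (0.115, 0.103 and 0.254, against -0.140 to 0.020 for other numbers). The labels do not say whether the numbers pair the samples. The main fits and ratio tests therefore left the number out, and a fit blocked on it was run as an alternative. Within each group, chi-square statistics were 7.73 to 37.5 times their degrees of freedom, above sampling noise. Alternatives were DESeq2 1.42.0, library size only, other filters and pseudocounts, thinning to 126910 reads, paralog sums, the replicate block and leaving out each library. The named miRNAs were all members, their locus and seed partners, the 2 closest profiles per member and the 3 largest ratio changes of each kind. The members and lists were chosen with earlier results of these data known.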

Additional observations from a re-analysis of the deposited data

How the results depend on the processing

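The lower level of miR-23b-3p and its changed ratios to miR-23a-3p, miR-27b-3p and miR-24-3p kept direction and call under every alternative run. With a library left out, the log2 changes of these ratios were 1.68 to 1.89, 1.73 to 2.16 and 2.41 to 2.73, and with the replicate block the first had a limma adjusted p of 0.0158. With the block miR-27a-3p (-0.79) was called in addition, and no other call on a member or member ratio changed. With library size only, 148 miRNAs were called higher and 60 lower in place of 96 and 97, 1 member was lower in place of 3, and miR-24-3p stood at 0.24 in place of -0.22. Without a filter 5 members were lower, among them miR-27b-5p and miR-27a-5p, which were then tested. The call on miR-27a-5p rested on 1 read in EVs and 5 in cells, 4 of them in Cells replicate 3. In the fit without a filter 111 of the 1015 miRNAs with at least 1 read were lower. With a library left out, 3 to 5 members were lower, beside 88 to 98 of all tested miRNAs. In each of these fits miR-27b-5p passed the filter and was called lower, while the main fit did not test it. It passed through the cell libraries (38.4 to 55.2 CPM), being at 6.37 to 11.6 CPM in EVs. Its part in these numbers is thus no added support. The number of members lower was 5 without EVs replicate 3 or Cells replicate 2, where miR-27a-3p was also called. The ratio of miR-27a-3p to miR-27b-3p, not called, lay between -0.19 and 0.19 with changes of sign, and that of miR-27a-3p to miR-23a-3p between -0.077 and 0.45. The arm ratio of miR-24 lay between -1.83 and -1.23, and that of miR-27b between -2.13 and -1.76. The number of hairpins called on the arm ratio fell from 67 to between 36 and 60, with 36 without EVs replicate 1. The double ratio of the clusters lay between 1.68 and 1.92. The cause of these shifts was not tested beyond what is said. Depth limits the 5p strands, which rest on 0 to 37 reads a library.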
